A study of Mus musculus with 12 samples.

Results

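The 4 genes for signalling fibroblast growth factor (FGF) receptors, Fgfr1 to Fgfr4, and 5 genes for FGF ligands that pass between epithelium and stroma, Fgf1, Fgf2, Fgf7, Fgf10 and Fgf18, were followed across 12 mouse mammary tumors. The members were taken by gene symbol, and all 9 were found among the 47593 genes measured. Each tumor came from a female MADM-Brca1-p53; MMTV-Cre mouse (MADM-mutant mouse) that received no treatment, and all 12 tumors form a single condition. Tumors 3 and 4 were taken from one mouse, tumors 10, 11 and 12 from another, and each remaining tumor from a mouse of its own, which gave 9 mice. In these mice of mixed background, mosaic analysis with double markers (MADM) yields sparse cells that lack both Brca1 and p53, by Cre-driven exchange between the homologous chromosomes 11 that carry the paired MADM cassettes and the mutant alleles. Cre is driven by the MMTV promoter, which targets the mammary epithelium. The same exchange yields wild-type sister cells, the remaining cells are heterozygous for the mutations, and whole tumor pieces were homogenized, so stromal, vascular and immune RNA is included. Normal gland and age groups were not analysed here.

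FGFs are secreted proteins that bind receptor tyrosine kinases together with heparan sulfate and signal through the adaptor Frs2 to the MAPK cascade. In the mammary gland the classical exchange is directional: stromal cells make Fgf7 and Fgf10, and epithelial cells carry the Fgfr2 splice form that receives them. Fgf10 and Fgfr2 are required for the gland to form, while Fgfr1 and its ligands Fgf1 and Fgf2 are used by both epithelium and stroma.

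Levels are given as TPM, a transcript abundance scaled by gene length which can be set side by side between genes and that sums to nearly one total in every tumor. Means ± SD are over the 9 mice, with tumors of one mouse averaged first. TPM keeps no read numbers, so depth is unknown, and a value of 0 means only that the gene is listed at 0. Nothing shows the counting error of a low value. Tumors 2 and 8 stood apart in their markers. The summed TPM of 7 epithelial genes (Cdh1, Epcam, Cldn3, Cldn4, Cldn7, Krt8, Krt18) was 1.87 in tumor 2 and 156 in tumor 8 and lay between 3243 and 8152 in the other 10. Epcam was listed at 0 in tumor 2. The sum of 5 B lymphocyte genes was 1852 in tumor 2, 115 in tumor 9 and at most 7.80 elsewhere. Results that rest on tumors 2 and 8 are given with and without them. In bulk tissue, fewer cells of a type and less RNA per cell cannot be told apart. Brca1 (6.93 to 24.7 TPM) and Trp53 (30.2 to 74.2 TPM) were above 0 in every tumor, which does not check the genotype, since wild-type and heterozygous cells carry an intact copy.

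Fgfr1 was the leading receptor in 10 of 12 tumors, Fgfr2 in tumor 2 and Fgfr3 in tumor 9. Fgf1 and Fgf2 were the ligands measured in nearly all tumors. Fgf7, Fgf10 and Fgf18 were low or listed at 0. Of the 9 members, 0 had 1 TPM or more in all 12 tumors, against 25.2% of all 47593 genes. With at least 11 of 12 tumors required there were 3 members, Fgfr1, Fgf1 and Fgf2, against 28.2% of all genes. A TPM of 1 or more in at least 1 tumor was reached by 7 members, against 43.4% of all genes, and missed by Fgfr4 and Fgf10.

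Fgfr1, the receptor with a broad role in mesenchyme and epithelium, lies on chr8:25513654-25575718 (plus strand, build GRCm38, as are all positions here; ENSMUSG00000031565). It measured 182, 0.855, 15.4, 69.9, 378, 228, 218, 550, 30.0, 137, 360 and 584 TPM in tumors 1 to 12. The mean was 221 ± 184 TPM (SD, n = 9) and the median 200.1 TPM. Tumor 2 stood below all others, and tumors 3 and 9 were the next lowest. Even without tumor 2 the highest value was 38.0 times the lowest. Its SD on the log2(TPM + 1) scale was 2.60, larger than that of 99.3% of the 16802 genes with a mean of at least 1 TPM. Without the mouse of tumor 2 the SD was 1.54, larger than that of 95.4% of those genes over the same 8 mice.

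Fgfr3, a receptor best known for restraining bone growth, lies on chr5:33721674-33737068 (plus strand; ENSMUSG00000054252). It measured 11.7, 0, 0.377, 1.31, 10.4, 23.5, 1.22, 2.09, 111, 2.66, 60.5 and 37.3 TPM in tumors 1 to 12, with a mean of 21.6 ± 35.5 TPM (10.4 TPM without the mouse of tumor 9) and a median of 6.53 TPM. Tumor 9 was highest, followed by tumors 11 and 12 of one mouse, and tumors 2 and 3 were lowest. The highest was 294 times the lowest with tumor 2, listed at 0, left out. The SD on the log2(TPM + 1) scale exceeded that of 98.2% of the 16802 genes.

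Fgfr2, the receptor through which epithelium receives Fgf7 and Fgf10, lies on chromosome 7 (minus strand; ENSMUSG00000030849). Its levels in tumors 1 to 12 were 0.216, 31.0, 2.97, 5.94, 0.504, 0.243, 0, 0.998, 3.12, 0.689, 0.175 and 1.73 TPM, with a mean of 4.60 ± 10.0 TPM (1.30 TPM without the mouse of tumor 2) and a median of 0.844 TPM. Fgfr2 was therefore highest in the tumor with almost no epithelial marker RNA, and among the other tumors it was highest in tumors 4, 9 and 3. It reached 1 TPM in 5 of 12 tumors. GENCODE gives the gene a span of 130162451 to 133123350 that overlaps 66 other genes, 30 of them protein coding, while RefSeq ends it at 130266808. How the deposited values divide reads over that span is not given in the sources used here.

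Fgfr4, which serves bile acid and muscle metabolism in other tissues, was near the bottom of the scale throughout. It lies on chr13:55152640-55168759 (plus strand; ENSMUSG00000005320), ranged from 0 to 0.504 TPM (tumor 12) with a median of 0.117 TPM, and was listed at 0 in 4 tumors. Its mean was 0.108 ± 0.126 TPM.

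**Figure D1:**
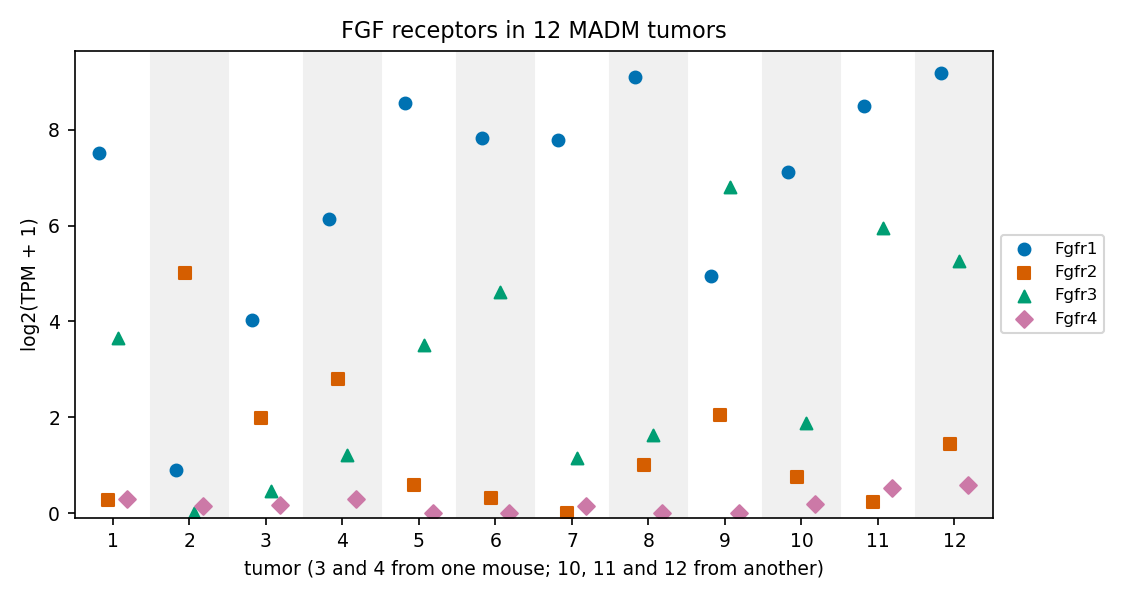
Level of each receptor, as log2(TPM + 1), in each of the 12 tumors; 1 marker is 1 receptor in 1 tumor. Fgfr1 lies above the other receptors except in tumor 2, where Fgfr2 (31.0 TPM) is highest, and tumor 9, where Fgfr3 (111 TPM) is highest.

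The promoters of the receptors that took the lead in tumors 2 and 9 are shown because these genes were among the most variable members, and because they differ in base composition. RefSeq windows (GRCm38.p6) run from 250 bases before to 50 after an annotated start. They were matched for 7 of 9 members (Fgfr1 and Fgf1 had no match), with 8 windows in all. The windows of Fgfr2, Fgf2 and Fgf10 lie within the GENCODE span of the gene, and the start of that span was not examined for them. Capitals mark the GC box, the letters GGGCGG or their reverse complement CCGCCC, searched on both strands with overlapping matches counted.
Fgfr2, chr7:130266759-130267058, minus strand: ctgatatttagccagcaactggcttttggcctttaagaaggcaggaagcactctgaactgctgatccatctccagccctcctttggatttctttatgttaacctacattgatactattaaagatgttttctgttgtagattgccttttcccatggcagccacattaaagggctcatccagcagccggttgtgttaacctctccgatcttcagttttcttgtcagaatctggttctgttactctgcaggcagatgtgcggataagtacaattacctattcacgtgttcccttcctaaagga
Fgfr3, first start, chr5:33721474-33721773, plus strand: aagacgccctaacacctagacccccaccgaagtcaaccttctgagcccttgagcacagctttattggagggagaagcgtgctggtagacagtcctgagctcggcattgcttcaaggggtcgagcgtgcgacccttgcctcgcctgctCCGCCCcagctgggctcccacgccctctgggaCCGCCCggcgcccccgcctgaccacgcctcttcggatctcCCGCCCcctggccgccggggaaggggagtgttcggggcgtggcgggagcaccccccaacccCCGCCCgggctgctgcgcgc
Fgfr3, second start, chr5:33722056-33722355, plus strand: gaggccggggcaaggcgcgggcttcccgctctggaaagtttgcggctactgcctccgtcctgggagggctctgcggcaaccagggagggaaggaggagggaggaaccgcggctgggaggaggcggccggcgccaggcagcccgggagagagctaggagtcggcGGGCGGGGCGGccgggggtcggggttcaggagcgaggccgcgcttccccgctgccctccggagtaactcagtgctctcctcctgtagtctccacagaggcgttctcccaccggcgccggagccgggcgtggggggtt
The Fgfr2 window held 0 GC boxes and 4 CpG dinucleotides, and 43.7% of its bases were G or C. The Fgfr3 windows held 4 and 2 GC boxes and 26 and 30 CpGs, at 69.7% and 73.0% G or C. Of all 32851 windows, 35.7% held a GC box and the median CpG count was 7. A match is a description of the letters and not a site in use.

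In share of the summed receptor TPM, Fgfr1 took 81.6% to 99.4% in the 10 tumors it led. In tumor 2 Fgfr2 took 97.0% and Fgfr1 2.67%, and in tumor 9 Fgfr3 took 77.0% and Fgfr1 20.8%. The other departures from Fgfr1 were smaller: Fgfr2 took 15.8% in tumor 3 and 7.67% in tumor 4, and Fgfr3 took 14.4% in tumor 11, 9.35% in tumor 6 and at most 6.02% in the other tumors that Fgfr1 led. Counted by mouse, Fgfr1 led in 7 of 9. Mean shares were 75.8 ± 36.8% for Fgfr1, 12.4 ± 31.9% for Fgfr2, 11.7 ± 24.7% for Fgfr3 and 0.117 ± 0.167% for Fgfr4 (SD, n = 9). The Fgfr2 mean rested on tumor 2 and was 1.83% without that mouse, and the Fgfr3 mean rested on tumor 9 and was 3.53% without it. The first receptor exceeded the second by 3.70-fold in tumor 9 and by up to 263-fold in tumor 8. The summed receptor level itself was lowest in tumor 3, at 18.8 TPM, and highest in tumor 12, at 623 TPM.

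**Figure D2:**
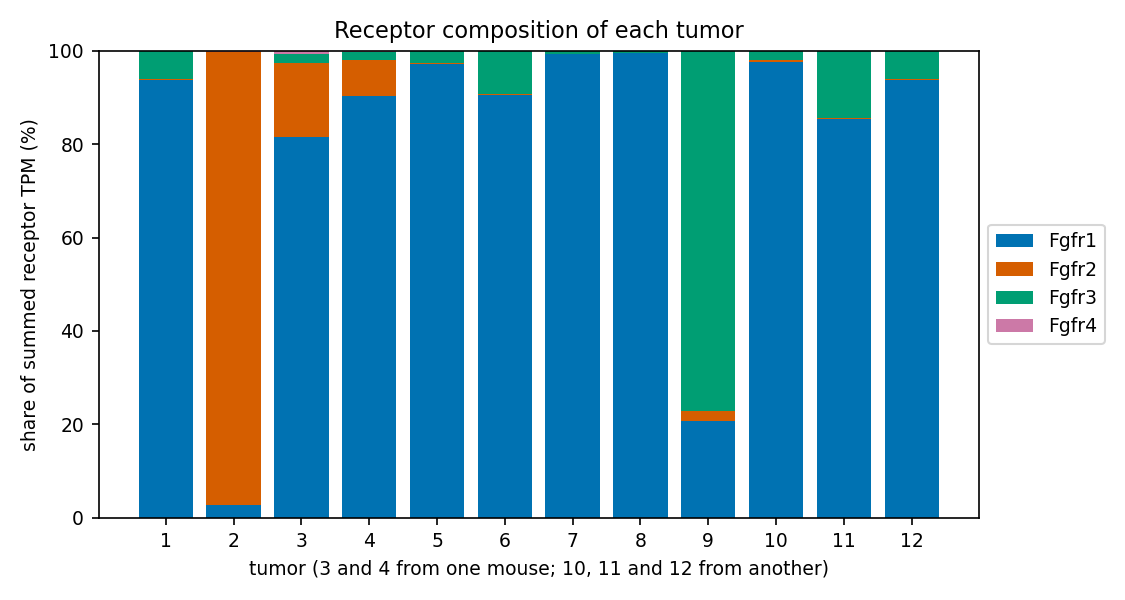
Share of the summed TPM of the 4 receptors taken by each, in percent, for the 12 tumors; each stacked bar is 1 tumor and adds to the whole. Fgfr1 fills 81.6% or more of 10 bars, Fgfr2 fills 97.0% of tumor 2 and Fgfr3 fills 77.0% of tumor 9.

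Whether one receptor exceeded another beyond the spread between mice was tested within mice on the log2(TPM + 1) scale, with an exact sign-flip permutation test (two-sided, Benjamini-Hochberg over 16 receptor and ligand pairs; the smallest p that 9 mice allow is 0.0039). Fgfr1 was higher than Fgfr4 by 6.53 ± 2.61 (SD, n = 9) in 9 of 9 mice (adjusted exact p = 0.0125). It exceeded Fgfr2 by 5.29 ± 4.12 in 8 of 9 mice, all but that of tumor 2 (adjusted exact p = 0.0227). It exceeded Fgfr3 by 3.72 ± 2.83 in 8 of 9 mice, all but that of tumor 9 (adjusted exact p = 0.0208). Of the receptor pairs, 5 of 6 passed, which placed Fgfr1 above the other receptors and Fgfr4 below them. Fgfr3 exceeded Fgfr4 by 2.81 ± 2.22 in 8 of 9 mice (adjusted exact p = 0.0156), and Fgfr2 exceeded it by 1.24 ± 1.59 in 7 of 9 (adjusted exact p = 0.0227). The latter difference was 0.79 without the mouse of tumor 2.

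Fgfr2 and Fgfr3, the middle pair, did not pass: Fgfr2 minus Fgfr3 was -1.57 ± 3.18, with Fgfr2 the higher in 2 mice and Fgfr3 in 7 (adjusted exact p = 0.21). That call rested on tumor 2. Without its mouse the difference was -2.39 and passed (adjusted exact p = 0.0417). Without the mice of both tumors 2 and 8 the difference of Fgfr1 over Fgfr3 was 3.58 (adjusted exact p = 0.05) and that of Fgfr2 over Fgfr4 was 0.76 (adjusted exact p = 0.0769), and neither passed.

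**Figure D3:**
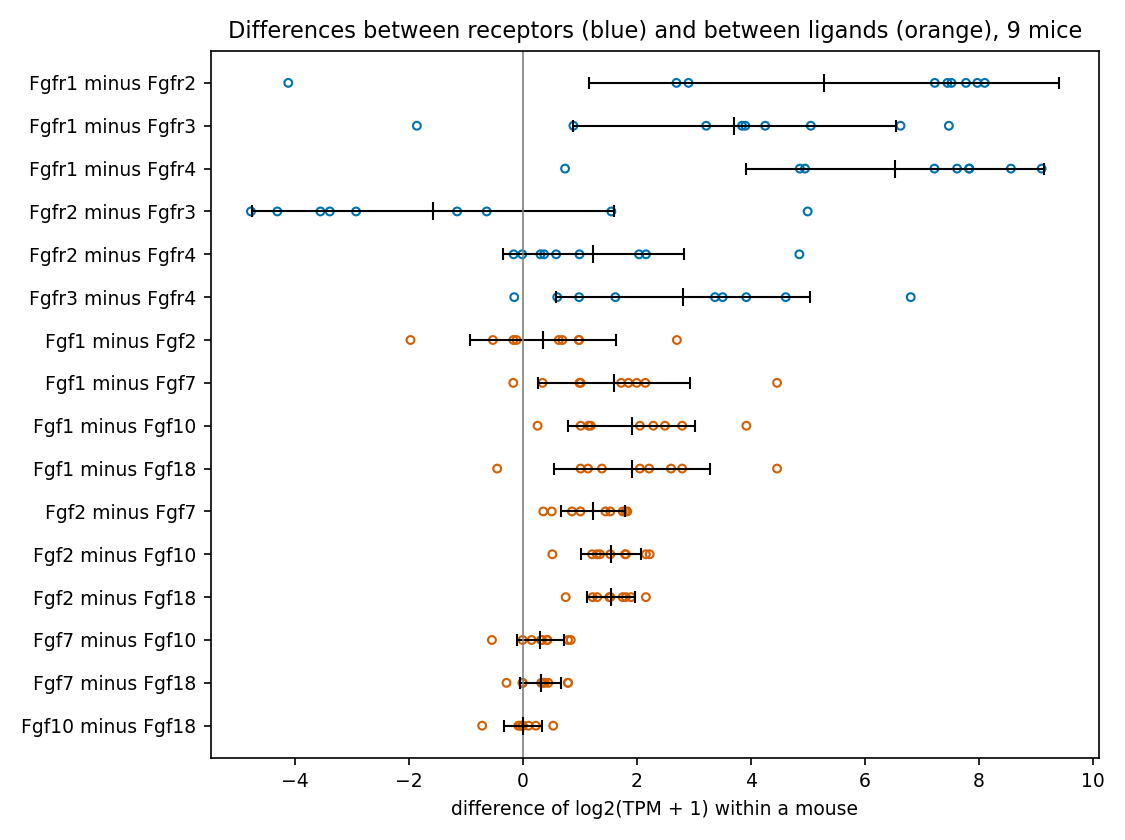
Difference of log2(TPM + 1) within a mouse for the 16 pairs of receptors and of ligands; circles are the 9 mice, and the vertical tick with its bar is the mean and SD. The Fgfr1 pairs have the highest means (3.72 to 6.53), with 1 mouse below 0 against Fgfr2 and 1 against Fgfr3, and Fgf1 minus Fgf2 spans 0 (0.36 ± 1.28).

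Fgf1, which can bind every FGF receptor, lies on chromosome 18 from 38838673 to 38929472 (minus strand; ENSMUSG00000036585). It measured 5.96, 1.62, 1.48, 3.28, 4.96, 3.16, 1.03, 0.978, 21.1, 6.45, 3.70 and 5.43 TPM in tumors 1 to 12, with a mean of 5.15 ± 6.25 TPM (3.16 TPM without the mouse of tumor 9). Tumor 9 was highest and tumor 8 lowest, a range of 21.5-fold, and the other 10 tumors lay between 1.03 and 6.45 TPM. Tumor 9 was thus highest both for Fgfr3 and for Fgf1. With 1 such tumor, no relation between them was tested.

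Fgf2, basic FGF, a heparin-binding growth factor made by many stromal and epithelial cells, had the smallest SD on the log2(TPM + 1) scale (0.58) of the 5 members with a mean of at least 1 TPM. It lies on chr3:37348346-37410108 (plus strand; ENSMUSG00000037225) and measured 2.51, 0.689, 2.12, 3.25, 2.00, 3.48, 1.91, 6.73, 2.38, 3.36, 2.10 and 2.89 TPM in tumors 1 to 12. The mean was 2.80 ± 1.66 TPM. Tumor 2 was lowest and tumor 8 highest, and without tumor 2 the range was 3.53-fold. Its SD exceeded that of 50.5% of the 16802 genes, 30.3% without the mouse of tumor 8 and 45.1% without that of tumor 2. Fgf2 overlaps the protein-coding gene Nudt6 on the opposite strand (3.44 to 11.5 TPM, median 5.79 TPM). The libraries were stranded, but whether quantification used the strand is not given in the sources used here.

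Fgf7, also called keratinocyte growth factor and made by stromal fibroblasts for epithelium, ranged from 0 to 1.78 TPM with a median of 0.521 TPM and a mean of 0.569 ± 0.534 TPM. It lies on chr2:126034658-126091185 (plus strand; ENSMUSG00000027208). Only tumors 3, 4 and 8 reached 1 TPM (1.35, 1.78 and 1.21 TPM), and these 3 tumors also had the highest fibroblast marker levels. Tumors 7 and 9 were listed at 0.

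Fgf10, the stromal ligand that starts mammary bud formation, ranged from 0 to 0.711 TPM (tumor 4) with a median of 0.164 TPM and was listed at 0 in 4 tumors (chr13:118669791-118792115, plus strand; ENSMUSG00000021732). Fgf18, a ligand known from skeletal and lung development, was listed at 0 in 8 tumors (chr11:33117430-33147400, minus strand; ENSMUSG00000057967). It measured 1.69 TPM in tumor 8, 0.860 TPM in tumor 4, 0.278 TPM in tumor 5 and 0.162 TPM in tumor 3. Its mean was 0.276 ± 0.561 TPM, and 0.0987 TPM without the mouse of tumor 8. In tumor 2, where Fgfr2 was highest, the stromal ligands of its epithelial form were low (Fgf7 0.313 TPM, Fgf10 0.176 TPM), and Fgf1 was 1.62 TPM.

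**Figure D4:**
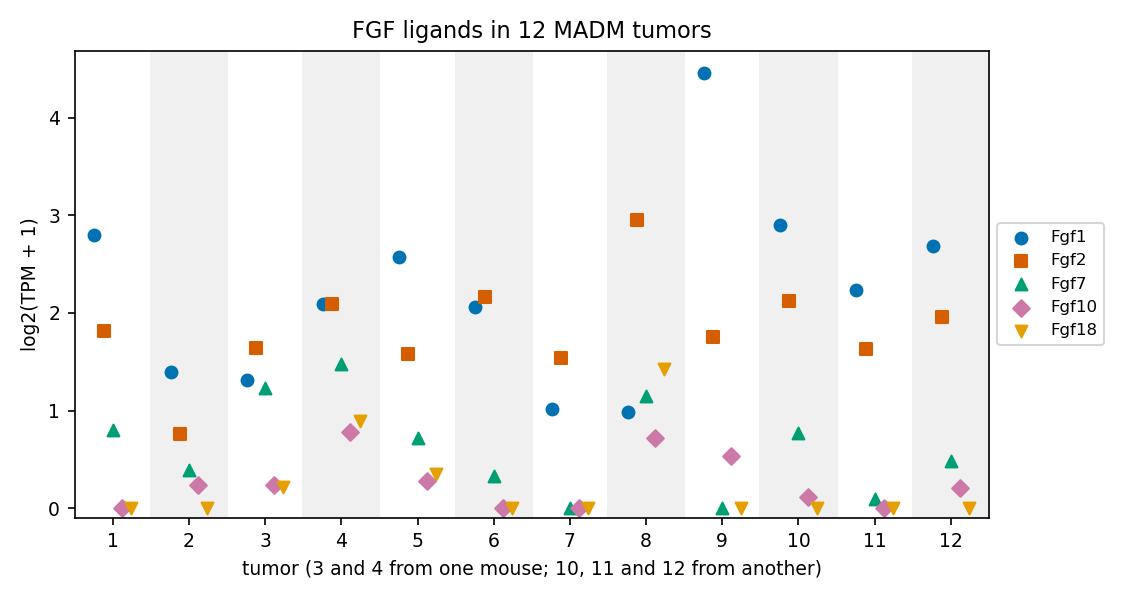
Level of each ligand, as log2(TPM + 1), in each of the 12 tumors; 1 marker is 1 ligand in 1 tumor. Fgf1 and Fgf2 lie above Fgf7, Fgf10 and Fgf18 in most tumors, Fgf1 peaks in tumor 9 (21.1 TPM), and Fgf2 and Fgf18 peak in tumor 8 (6.73 and 1.69 TPM).

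The start regions of Fgf2 and Fgf7 are printed to set a ligand measured in nearly all tumors beside a low stromal one, with GC boxes in capitals as before.
Fgf2, chr3:37348403-37348702, plus strand: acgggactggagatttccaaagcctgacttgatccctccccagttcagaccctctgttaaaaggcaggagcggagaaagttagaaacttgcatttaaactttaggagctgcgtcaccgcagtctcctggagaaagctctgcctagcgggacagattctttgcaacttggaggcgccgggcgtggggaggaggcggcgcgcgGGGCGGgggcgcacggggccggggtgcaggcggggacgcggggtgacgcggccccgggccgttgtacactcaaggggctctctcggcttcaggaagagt
Fgf7, chr2:126034408-126034707, plus strand: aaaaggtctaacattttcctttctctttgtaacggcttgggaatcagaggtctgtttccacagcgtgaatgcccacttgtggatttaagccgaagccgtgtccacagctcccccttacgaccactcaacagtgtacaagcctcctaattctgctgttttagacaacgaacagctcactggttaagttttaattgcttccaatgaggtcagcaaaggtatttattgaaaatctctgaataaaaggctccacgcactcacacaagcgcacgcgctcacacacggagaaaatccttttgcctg
The Fgf2 window held 1 GC box and 24 CpGs at 62.7% G or C, and the Fgf7 window 0 GC boxes and 11 CpGs at 45.7%. Of the other members near the bottom of the scale, the Fgfr4 window held 4 GC boxes and those of Fgf10 and Fgf18 held 1 each. The TATA sequence TATAAA, searched on both strands and found in 13.6% of all windows, was in 0 of the 8.

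Fgf1 was the most abundant of the 5 ligands in 8 tumors and Fgf2 in tumors 3, 6, 7 and 8. Their mean shares of the summed ligand TPM were 50.4 ± 23.2% and 36.8 ± 18.1%, against 7.49 ± 6.76% for Fgf7, 2.52 ± 2.62% for Fgf10 and 2.71 ± 5.08% for Fgf18 (SD, n = 9). The Fgf18 share rested on tumor 8 and was 1.17% without that mouse, against 2.12% for Fgf10. Fgf1 and Fgf2 could not be ordered: Fgf1 was the higher in 5 of 9 mice, by a mean of 0.36 ± 1.28 on the log2(TPM + 1) scale (adjusted exact p = 0.458). The mean was 0.070 without the mouse of tumor 9 and 0.65 without that of tumor 8, and passed in neither case. Both ligands passed against each of the other ligands. Fgf2 was higher than Fgf7 by 1.24 ± 0.57, than Fgf10 by 1.55 ± 0.53 and than Fgf18 by 1.55 ± 0.42, each in 9 of 9 mice (adjusted exact p = 0.0125 for each). Fgf1 was higher than Fgf10 by 1.91 ± 1.12 in 9 of 9 mice (adjusted exact p = 0.0125). It was higher than Fgf7 by 1.60 ± 1.33 and than Fgf18 by 1.92 ± 1.37, each in 8 of 9 mice (adjusted exact p = 0.0156 for both).

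Among the low ligands, Fgf7 exceeded Fgf18 by 0.32 ± 0.36, with 6 mice positive and 1 negative (adjusted exact p = 0.0417). This did not pass when the mouse of tumor 1, 2, 3 and 4, 5, 6, or 10 to 12 was left out (0.26 to 0.31). Fgf7 minus Fgf10 was 0.31 ± 0.42 (adjusted exact p = 0.0865), and Fgf10 minus Fgf18 was 0.0052 ± 0.33 (adjusted exact p = 0.969). In all, 7 of 10 ligand pairs passed. The summed TPM of the 4 receptors exceeded that of these 5 ligands in every tumor. The ligand sum ranged from 2.80 TPM (tumor 2) to 23.9 TPM (tumor 9), and the ratio of receptors to these ligands from 3.55 (tumor 3) to 74.9 (tumor 7).

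Because Fgf7, Fgf10 and Fgf2 are known as stromal products, each member was set against the mean log2(TPM + 1) of 8 fibroblast genes (Col1a1, Col1a2, Col3a1, Dcn, Lum, Pdgfra, Pdgfrb, Postn), with an exact test that permuted which mouse went with which (9 mice, adjusted over 13 relations). The list mean was lowest in tumor 2 (3.14) and highest in tumor 8 (8.30). Fgf7 had r = 0.79 (exact p = 0.0104, adjusted 0.0451) and rho = 0.88 (exact p = 0.0034, adjusted 0.0441), and without the 2 mice farthest from the median of the fibroblast level, those of tumors 2 and 8, r was 0.92 over 7 mice. Fgf18 had r = 0.80 (exact p = 0.004, adjusted 0.0439) and rho = 0.77 (exact p = 0.0238, adjusted 0.155), with r = 0.74 without those mice, and it was listed at 0 in 6 of 9 mice. Fgf2 had r = 0.85 (exact p = 0.0068, adjusted 0.0439) and rho = 0.68 (exact p = 0.0503, adjusted 0.164). The Fgf2 relation rested on tumors 2 and 8, since r was 0.33 without them.

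These 3 calls were not firm. With a pseudocount of 0.1 the adjusted exact p was 0.0766 for Fgf2, 0.156 for Fgf7 and 0.0903 for Fgf18, and with the median of the fibroblast list it was 0.0706 for each. The Fgf7 call held without the mouse of tumor 2 or of tumor 9 and was lost without any other mouse (r from 0.73 to 0.89 over the 9 omissions). The Fgf2 call held without the mouse of tumor 6 or 9 (r from 0.73 to 0.91), and the Fgf18 call without that of tumor 1, 2 or 9 (r from 0.66 to 0.87).

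For the other members no relation to the fibroblast list passed. Fgf10 had r = 0.60 (adjusted exact p = 0.237; rho = 0.39), which was 0.32 without tumor 8 and 0.49 without tumors 2 and 8. Fgfr1 had r = 0.55 (adjusted exact p = 0.296; rho = 0.53), which became 0.10 without tumor 2 and -0.36 without tumors 2 and 8. Fgfr2 had r = -0.35 (adjusted exact p = 0.565; rho = 0), which became 0.61 without them, and Fgfr3, Fgfr4 and Fgf1 had r of 0.061, -0.062 and -0.053. Among receptor and ligand pairs, Fgfr1 with Fgf2 had r = 0.72 (exact p = 0.0429, adjusted 0.139; rho = 0.57), and r = -0.074 without tumors 2 and 8. Fgfr2 with Fgf10 had r = 0.34 (adjusted exact p = 0.565) and rho = 0.71 (exact p = 0.0402, adjusted 0.164). It had r = 0.74 without tumor 2 and r = 0.94 without tumors 2 and 8 (adjusted exact p = 0.108 and 0.0619), so r moved with those tumors but passed in neither case. Fgfr2 with Fgf7 had r = 0.050 (adjusted exact p = 0.903; rho = 0.25), and r = 0.37 without tumors 2 and 8. Fgf7 with Fgf10 had r = 0.47 (adjusted exact p = 0.364; rho = 0.36), r = 0.28 without tumors 2 and 8, and r = 0.79 without tumor 9 (adjusted exact p = 0.0682). With 7 to 9 mice, a p that misses the threshold does not show that no relation exists.

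**Figure D5:**
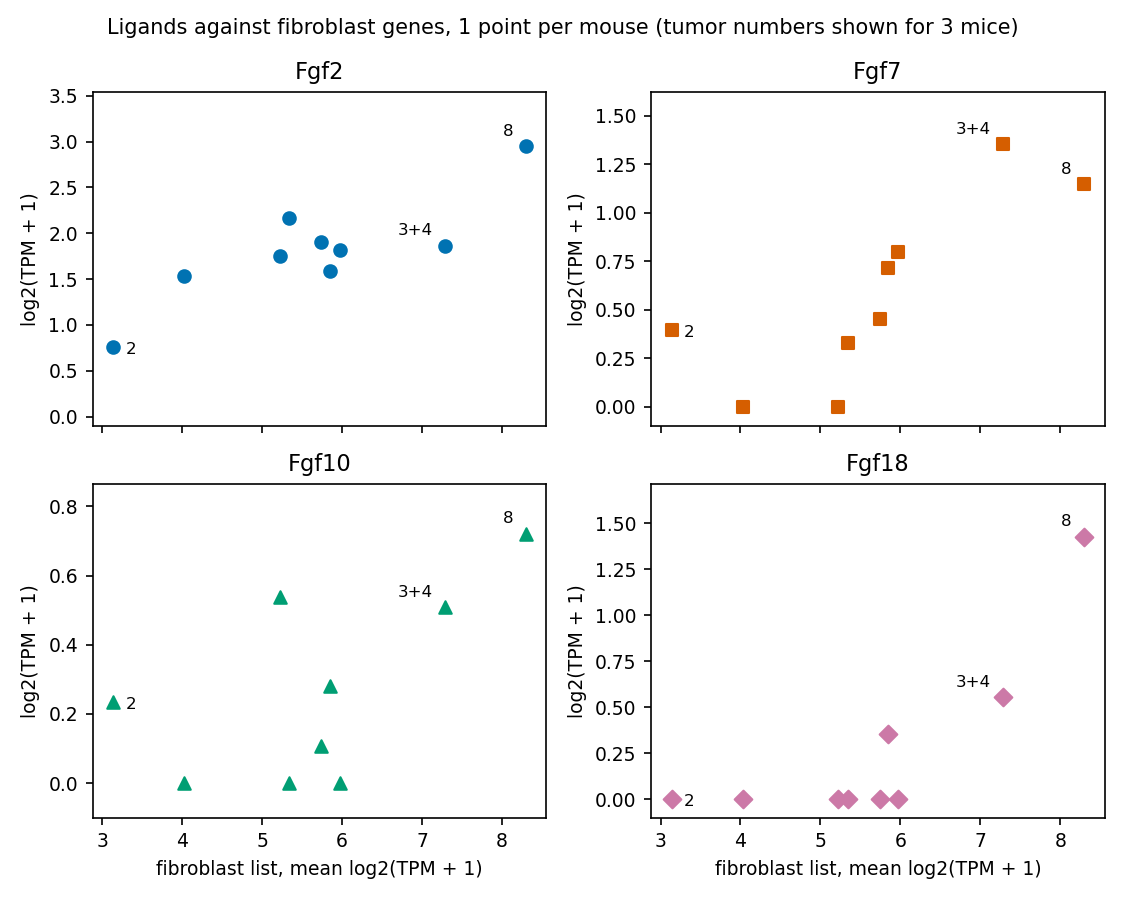
Levels of Fgf2, Fgf7, Fgf10 and Fgf18 against the mean level of 8 fibroblast genes, both on the log2(TPM + 1) scale; each point is 1 of 9 mice, and the mice of tumors 2, 3 and 4, and 8 are labelled. Fgf7 rises along the fibroblast axis with or without the outer mice (r = 0.79 and 0.92), while the Fgf2 relation (r = 0.85) leans on tumors 2 and 8 at the ends of the axis.

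Tumors of one mouse could differ widely. Every member was higher in tumor 4 than in tumor 3 of the same mouse. Among receptors the ratio was 4.55-fold for Fgfr1, 2.00-fold for Fgfr2, 3.46-fold for Fgfr3 and 1.87-fold for Fgfr4. Among ligands it was 2.21-fold for Fgf1, 1.53-fold for Fgf2, 1.32-fold for Fgf7, 3.91-fold for Fgf10 and 5.31-fold for Fgf18. Fgfr4, Fgf10 and Fgf18 were below 1 TPM in both tumors. The fibroblast list mean was 7.97 in tumor 4 and 6.60 in tumor 3, and its part in these ratios was not tested. In the mouse with 3 tumors, Fgfr1 was 137, 360 and 584 TPM in tumors 10, 11 and 12. Fgfr3 was 2.66, 60.5 and 37.3 TPM, so tumor 11 exceeded tumor 10 by 22.8-fold. The fibroblast list mean was 5.87, 5.49 and 5.86 in tumors 10, 11 and 12, and its part was not tested. Fgf2 stayed within 2.10 to 3.36 TPM in the same 3 tumors, and Fgf18 was listed at 0 in each. These pairs have no replicates within a mouse and were not tested.

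Around the members, 59 other genes of the FGF pathway were counted, and 26 of them had 1 TPM or more in all 12 tumors, against 25.2% of all genes. The 13 other secreted ligands were mostly low: 5 (Fgf3, Fgf4, Fgf5, Fgf6 and Fgf8) were listed at 0 in every tumor, 0 of 13 had 1 TPM in all tumors, and 2 reached 10 TPM in any. Each of the 2 did so in a single tumor. Fgf21, an endocrine FGF that acts on metabolism through the coreceptor Klb, was 355 TPM in tumor 9 and at most 0.843 TPM elsewhere. Fgf20, a ligand of the Fgf9 subfamily, was 19.9 TPM in tumor 2 and at most 0.122 TPM elsewhere. Tumors 2 and 9 are also the tumors in which Fgfr1 did not lead. Klb (named here with its values known) measured at most 0.456 TPM across the tumors and 0.081 TPM in tumor 9. Of the 4 FGF homologous factors, which stay inside the cell, Fgf11 had 1 TPM or more in all tumors (1.19 to 3.40 TPM), and Fgf13 reached 12.9 TPM in tumor 2 with at most 2.37 TPM elsewhere. Fgf12 and Fgf14 had the lowest means of the 4, at 0.0634 and 0.0334 TPM.

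Of the coreceptors and FGF-binding proteins, 5 of 16 had 1 TPM or more in all tumors, a share near the 25.2% of all genes. The highest means belonged to the syndecans, cell-surface proteoglycans whose heparan sulfate chains bind FGFs: Sdc4 at 251 ± 167 TPM and Sdc1 at 176 ± 117 TPM. Sdc1 was low in tumors 9 (5.19 TPM) and 2 (17.2 TPM). The lowest means were those of Kl, the coreceptor for Fgf23, at 0.0382 TPM and Flrt1 at 0.0448 TPM. Fgfrl1, a receptor-like protein without the kinase domain and named after its values were seen, ranged from 5.02 TPM in tumor 9 and 8.09 TPM in tumor 2 to 223 TPM in tumor 7.

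RNA of the adaptors inside the cell was present throughout, though Gab1 was only 1.05 TPM in tumor 2, against 14.3 TPM or more elsewhere. All 9 adaptors had 1 TPM or more in all 12 tumors, against 25.2% of all genes. Their means ran from Grb2 (101 ± 35.5 TPM) and Shc1 (94.5 ± 40.7 TPM) at the top to Sos1 (9.37 ± 2.90 TPM) and Frs3 (5.49 ± 1.94 TPM) at the bottom. Frs2, the docking protein of FGF receptors and named with its values known, stayed within 8.54 to 20.6 TPM. Of the 14 feedback inhibitors and transcriptional targets of the pathway, 10 had 1 TPM or more in all tumors, against the same 25.2%. Dusp6, a phosphatase for ERK, had a mean of 123 ± 48.0 TPM and Dusp4 one of 89.6 ± 52.1 TPM, while Il17rd (1.17 TPM) and Spry3 (0.270 TPM) had the lowest means.

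Tumor 9, in which Fgfr3 led, had the lowest value of 9 of the 13 feedback and target genes with a mean of at least 1 TPM, against 20.6% of the 16802 such genes lowest in that tumor. This count was chosen after the values were seen and was not tested. The 9 were Spry1, Spry2, Spry4, Spred1, Spred2, Spred3, Dusp6, Etv4 and Etv5. Dusp6 was 35.2 TPM in tumor 9 and up to 219 TPM in tumor 12, Etv4 1.16 TPM against up to 108 TPM, and Etv5 20.5 TPM against up to 98.5 TPM. Dusp4 went the other way, with its highest value in tumor 9 (201 TPM) and the next in tumor 8 (118 TPM). Dusp4, Dusp5 and Il17rd were lowest in tumor 2, in which 28.9% of the genes were lowest.

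Esrp1 and Esrp2, the splicing factors that direct FGF receptors to their epithelial forms, set tumors 2 and 8 apart, as the epithelial markers did. Esrp2 was also low in tumor 9, which the epithelial sum did not set apart. Esrp1 was listed at 0 in tumor 2, measured 0.269 TPM in tumor 8, and was 92.6 to 162 TPM in the other 10. Esrp2 was listed at 0 in tumor 2 and was 0.261 TPM in tumor 8, 7.77 TPM in tumor 9 and 47.0 to 83.1 TPM elsewhere. Rbfox2, a splicing factor found in many mesenchymal cells, was lowest in tumor 2 (8.10 TPM) and highest in tumor 8 (89.8 TPM). Tumor 2 thus combined the highest Fgfr2 level with Esrp1 and Esrp2 both listed at 0. One value per gene does not show which receptor form was made.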

How the data were processed

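RNA from 12 mammary tumors of 9 mice was measured by stranded mRNA sequencing. The authors trimmed reads with fastq-mcf, aligned them to the GRCm38 transcriptome with HISAT and obtained TPM with StringTie 2.1.6 (version per the submitters' processing notes), and the deposited table holds 1 TPM value per gene and tumor. How transcripts were summed per gene is not given in the sources used here. All value columns were matched to tumors by their labels, and 0 were unused. TPM scales each tumor to one total, so a few abundant genes lower all others, and no count model was used.

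Here log2(TPM + 1) was computed and tumors of one mouse were averaged. Pairs of genes were compared by exact sign-flip tests and correlations by exact permutation of pairings, with Benjamini-Hochberg adjustment and a threshold of 0.05. Both were tested on simulated data. Positions came from GENCODE and RefSeq. The text names all members, other ligands and homologous factors reaching 10 TPM, the 2 highest and 2 lowest means of each other list, and genes behind counts of 5 or fewer or picked out with their values known. For each of Fgfr1, Fgfr2, Fgfr3, Fgf1 and Fgf2, the 3 genes most alike over mice are also named. Alternatives were a pseudocount of 0.1, TPM without a log, a minimum mean of 1 TPM, tumors as units, the list median, TPM rescaled without mitochondrial genes, presence thresholds of 0.1 and 5 TPM, and leaving out each mouse. Leaving out tumors 2 and 8 together and requiring 11 of 12 tumors were added after seeing the data. Members and lists were chosen with earlier results of these data known. Scripts ran in Python 3.11.15 with pandas 2.3.3 and numpy 2.4.6 for the tests and matplotlib 3.10.9 for plots.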

Additional observations from a re-analysis of the deposited data

Results flagged for a closer look

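Over 9 mice, 13 values (9 member levels and 4 receptor shares) were examined for a single mouse lying far from the rest, and 5 had one by Dixon's criterion, which chance alone meets in about 1 in 20 groups. Tumor 2 gave 3 of them. Its Fgfr1 level was 0.89 on the log2(TPM + 1) scale, with the nearest mouse at 4.95. Its Fgfr2 level was 5.00 with the nearest mouse at 2.39, and its Fgfr2 share of receptor TPM was 97.0% with the nearest at 11.7%. In tumor 9 the Fgfr3 share was 77.0% with the nearest mouse at 9.35%. In tumor 8 the Fgf18 level was 1.43 on the log2(TPM + 1) scale with the nearest at 0.56. Tumor 2 also had the lowest epithelial marker sum (1.87 TPM) and the highest B lymphocyte sum (1852 TPM), and tumor 8 the highest fibroblast sum (4010 TPM). Of that fibroblast sum Dcn alone gave 1732 TPM, and 3 of the 8 fibroblast genes were highest in tumor 8. The part of these markers in the flagged values was not tested.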

How the results depend on the processing

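No paired analysis was possible because the 12 tumors form a single group with no other to pair it with; the differences within mice compare genes. The differences of Fgfr1 over Fgfr2 and Fgfr4, and of Fgf1 and Fgf2 over Fgf7, Fgf10 and Fgf18, kept direction and call under all alternatives run. Values in TPM without a log gave Fgf7 minus Fgf18 as 0.293 (not passing) and Fgf10 minus Fgf18 as -0.052 (reversed), and with tumors as units Fgf7 minus Fgf10 was 0.36 and passed. Without the mice of tumors 2 and 8, an alternative added after seeing the data, the differences Fgfr1 minus Fgfr3 (3.58), Fgfr2 minus Fgfr4 (0.76) and Fgf7 minus Fgf18 (0.39) no longer passed. Under the same alternative the correlation with the fibroblast list changed sign for Fgfr1 (-0.36), Fgfr2 (0.61), Fgfr3 (-0.18), Fgfr4 (0.27) and Fgf1 (0.080), as did that of Fgfr1 with Fgf2 (-0.074), and Fgf2 (0.33) and Fgf18 (0.74) no longer passed. The Fgf2, Fgf7 and Fgf18 correlations also did not pass with a pseudocount of 0.1 (0.87, 0.66 and 0.78) or with the list median (0.79, 0.78 and 0.76).

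When each mouse was left out in turn, differences ranged from -2.39 to -1.17 for Fgfr2 minus Fgfr3 (passing without tumor 2), 0.26 to 0.39 for Fgf7 minus Fgf18, 0.24 to 0.42 for Fgf7 minus Fgf10 (passing without tumor 9) and -0.061 to 0.094 for Fgf10 minus Fgf18. Correlations with the fibroblast list ranged from 0.73 to 0.91 for Fgf2, 0.73 to 0.89 for Fgf7, 0.66 to 0.87 for Fgf18, -0.55 to 0.45 for Fgfr2, -0.36 to 0.28 for Fgfr3, -0.16 to 0.21 for Fgfr4 and -0.28 to 0.30 for Fgf1, and that of Fgfr2 with Fgf7 from -0.13 to 0.35. Members at 1 TPM or more in every tumor numbered 0 to 2 (2 without tumor 2, 1 without tumor 8), 3 at 0.1 TPM, and 3 when 11 of 12 tumors sufficed. Of the other pathway genes, 16 passed at 5 TPM. The causes were not tested. Depth is unknown, so the counting error of low levels could not be estimated.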

Other observations

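For 5 members the genes whose levels ran most alike over 8 mice (that of tumor 2 left out) were looked up among 16694 genes. They are the highest of a large search and are given as a description. For Fgfr1 they were Gm12418 (r = 0.98), Hdac5 (0.96) and Nol8 (0.95), which over all 9 mice had r of 0.72, -0.36 and -0.19. For Fgfr2 they were Rps19-ps6 (r = 0.97), Penk (0.97) and Fdxr (0.96), with 0.92, 0.13 and 0.51 over 9 mice. For Fgfr3 they were Tgoln1 (r = 0.96), Gm27572 (0.95) and Ppif (0.95), with 0.97, 0.95 and 0.52 over 9 mice. For Fgf1 they were Elmod3 (r = 0.99), Hagh (0.98) and Ago1 (0.97), with 0.75, 0.93 and 0.97 over 9 mice. For Fgf2 they were Zfp57 (r = 0.97), Tenm3 (0.97) and Lrp1 (0.96), with 0.90, 0.84 and 0.98 over 9 mice. Tumor 2 moved r most for genes alike to Fgfr1, and left the genes alike to Fgf2 at 0.84 or above.

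Other tissue markers differed between the tumors in which the members stood apart. The summed TPM of 5 skeletal muscle genes was 365 in tumor 3 and 245 in tumor 4, the tumors of the mouse with the highest Fgf7 levels, against a lowest of 2.89. The adipocyte sum was highest in tumor 4 (351 TPM), and the endothelial (167 TPM) and macrophage (1658 TPM) sums were highest in tumor 8. T lymphocyte genes summed to 81.7 TPM in tumor 9 and 65.4 TPM in tumor 8. Their part in the receptor and ligand levels was not tested.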
